A study of Mus musculus with 8 samples.

Results

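The genes described here encode nuclear-made subunits of the mitochondrial respiratory chain and of ATP synthase. They were chosen by symbol alone: the Nduf genes of complex I (assembly factors and Ndufa4l2 left out), Sdha to Sdhd of complex II, the Uqcr genes of complex III, the Cox4 to Cox8 genes of complex IV, and the Atp5 genes of ATP synthase, or complex V. Of 104 symbols that fit this rule in the RefSeq table, 86 were protein coding and 18 were pseudogenes. The array carried probes for 83 of them, among 20970 genes named on it, and 82 could be tested, among 22682 features (14387 of them named genes). By complex, the tested genes numbered 36, 4, 8, 17 and 17 for complexes I to V. The complex was likewise assigned by symbol alone, so Ndufa4, for one, is counted with complex I by its name.

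RNA was measured on 8 one-colour arrays of undifferentiated mouse pluripotent cells, all labelled C57BL/6J. The groups were OSKH induced pluripotent stem cells (iPSCs) on 4 arrays, OSK iPSCs on 3, the control group of the series, and 1 array of an embryonic stem cell (ESC) line, B6J-23. OSK is taken to stand for the reprogramming factors Oct4, Sox2 and Klf4, and H for the oocyte linker histone H1foo; the labels do not spell them out, and the donor cells, the vectors and any clones are not given in the sources used here. Nothing in the labels says that arrays of a group came from separate lines or cultures, so the p-values reflect how far these samples scatter, and that scatter may be technical.

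The respiratory chain passes electrons from NADH (at complex I) and succinate (at complex II) through coenzyme Q, complex III and cytochrome c to oxygen at complex IV. The protons pumped on the way drive ATP synthase. Most subunits are encoded in the nucleus, and a few core ones in mitochondrial DNA. Pluripotent cells are known for making much of their ATP by glycolysis, and reprogramming for a shift of metabolism in that direction.

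Levels below are log2 signals minus the 75th percentile of the array, so that 0 is that percentile, and differences are in log2 units. Probes differ in how brightly they bind, so the level of a gene is set against its own level on other arrays and not against another gene. The share of probes well above background was 51.4% to 59.0% per array, with 75th percentiles of 424 to 501 signal units. The arrays shared 1 slide, whose row 1 held ESC and OSKH 1 to 3 and whose row 2 held OSKH 4 and OSK 1 to 3. All 8 pluripotency markers looked for, such as Pou5f1, Sox2 and Nanog, were well above background on every array. The array OSKH 4 stood apart in markers of some other cells. The summed signal of 8 mesendoderm and endoderm markers was 45.9 times the 75th percentile there. It was 4.80 on the ESC array and 0.536 to 1.84 on the other 6 iPSC arrays. For 6 trophectoderm markers it was 59.5 on OSKH 4, 18.1 on ESC and 8.54 to 19.9 on the others. For 5 neural markers OSKH 4 did not stand apart (8.34, against 7.29 on ESC and 3.31 to 10.6 on the others). The summed signal of 10 fibroblast markers was 25.5 on OSKH 4, 23.4 on ESC and 5.57 to 13.6 on the others.

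Promoters are shown first for genes that return below. RefSeq promoter sequences (build GRCm38.p6) could be matched for 68 of the 83 genes. The windows run from 250 bases before the start to 50 after it, 300 in all. The first set is shown for its repeated matches to GCGCANGCG, letters from the core of the site of NRF1, a factor known for activating many respiratory chain genes. It holds Sdha (chr13:74350241-74350490, minus strand), Ndufb4 (chr16:37654369-37654618, minus strand) and Cox6a1 (chr5:115348959-115349208, minus strand). Capitals mark the matches, on either strand, in the 250 bases before the start.
Sdha: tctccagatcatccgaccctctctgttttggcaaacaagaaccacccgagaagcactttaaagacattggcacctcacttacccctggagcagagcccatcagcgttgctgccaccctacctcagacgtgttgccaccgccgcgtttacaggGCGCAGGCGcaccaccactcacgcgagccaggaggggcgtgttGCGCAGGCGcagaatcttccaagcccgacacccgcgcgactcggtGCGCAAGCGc
Ndufb4: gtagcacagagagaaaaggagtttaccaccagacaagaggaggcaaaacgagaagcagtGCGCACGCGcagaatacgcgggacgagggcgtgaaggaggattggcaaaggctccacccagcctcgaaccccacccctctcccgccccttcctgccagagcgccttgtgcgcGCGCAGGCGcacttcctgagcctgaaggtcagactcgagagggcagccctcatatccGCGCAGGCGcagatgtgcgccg
Cox6a1: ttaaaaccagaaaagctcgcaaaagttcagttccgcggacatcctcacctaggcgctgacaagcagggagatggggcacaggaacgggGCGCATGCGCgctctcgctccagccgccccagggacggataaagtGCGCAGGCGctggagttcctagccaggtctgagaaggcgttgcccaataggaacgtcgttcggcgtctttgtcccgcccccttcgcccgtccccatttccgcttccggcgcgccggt

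The letters recur closely in these promoters. Sdha and Ndufb4 held 3 such matches each, which in Sdha begin 98, 55 and 10 bases before the start, and Cox6a1 held 2, as did Ndufa8, which is not shown. The next 3 promoters belong to genes whose array values are described below: Ndufa5 (chr6:24527691-24527940, minus strand), Uqcrh (chr4:116075071-116075320, minus strand) and Ndufv3 (chr17:31519865-31520114, plus strand). Capitals mark an NRF1 match in Ndufa5, 26 bases before the start, and in Uqcrh, 11 bases before it, a match to CCGGAAGT, the letters of an ETS site bound by GABP, another known regulator of these genes. Ndufa5 has a second window with another start, not shown, in which the same match begins 190 bases before that start. In Ndufv3 no searched motif was found in the window shown.
Ndufa5: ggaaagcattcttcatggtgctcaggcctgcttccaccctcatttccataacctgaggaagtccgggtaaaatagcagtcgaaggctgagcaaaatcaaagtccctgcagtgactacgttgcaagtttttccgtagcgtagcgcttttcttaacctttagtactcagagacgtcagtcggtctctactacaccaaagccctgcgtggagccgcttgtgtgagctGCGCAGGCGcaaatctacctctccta
Uqcrh: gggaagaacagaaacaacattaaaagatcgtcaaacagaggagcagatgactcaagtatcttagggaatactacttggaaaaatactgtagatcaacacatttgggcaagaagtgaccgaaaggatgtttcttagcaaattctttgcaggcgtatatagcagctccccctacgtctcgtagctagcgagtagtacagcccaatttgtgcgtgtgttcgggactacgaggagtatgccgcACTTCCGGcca
Ndufv3: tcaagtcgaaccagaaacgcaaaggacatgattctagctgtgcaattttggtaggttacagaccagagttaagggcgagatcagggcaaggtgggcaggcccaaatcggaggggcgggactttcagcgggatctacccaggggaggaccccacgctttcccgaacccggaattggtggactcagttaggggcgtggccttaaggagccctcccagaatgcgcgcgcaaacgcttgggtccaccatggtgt

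Over the whole 300-base windows, 20 of 68 respiratory chain genes (29.4%) held the NRF1 letters, against 13.6% of the 11440 tested genes with a promoter entry and 7.03% of all 27025 genes. For 14 of the 20 a match lay wholly before the start. The YY1 letters AAGATGGCG, from the site of a further known regulator, were found in 7 genes (10.3%), among them Ndufs4 and Ndufs7, against 3.20% of tested genes and 1.64% of all genes. The ETS letters were found in 5 (7.35%), against 8.16% of tested genes and 4.31% of all. Both strands were searched, and 0 pairs of matches of different motifs overlapped in the windows of these genes. By complex, NRF1 letters were in 8 of 32 promoters for I, 2 of 3 for II, 2 of 5 for III, 1 of 13 for IV and 7 of 15 for V. The median OSKH minus OSK difference was -0.035 over the 20 genes with the NRF1 letters and -0.015 over the 47 tested genes without them. A match is a string of letters and says nothing of binding in these cells.

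**Figure D1:**
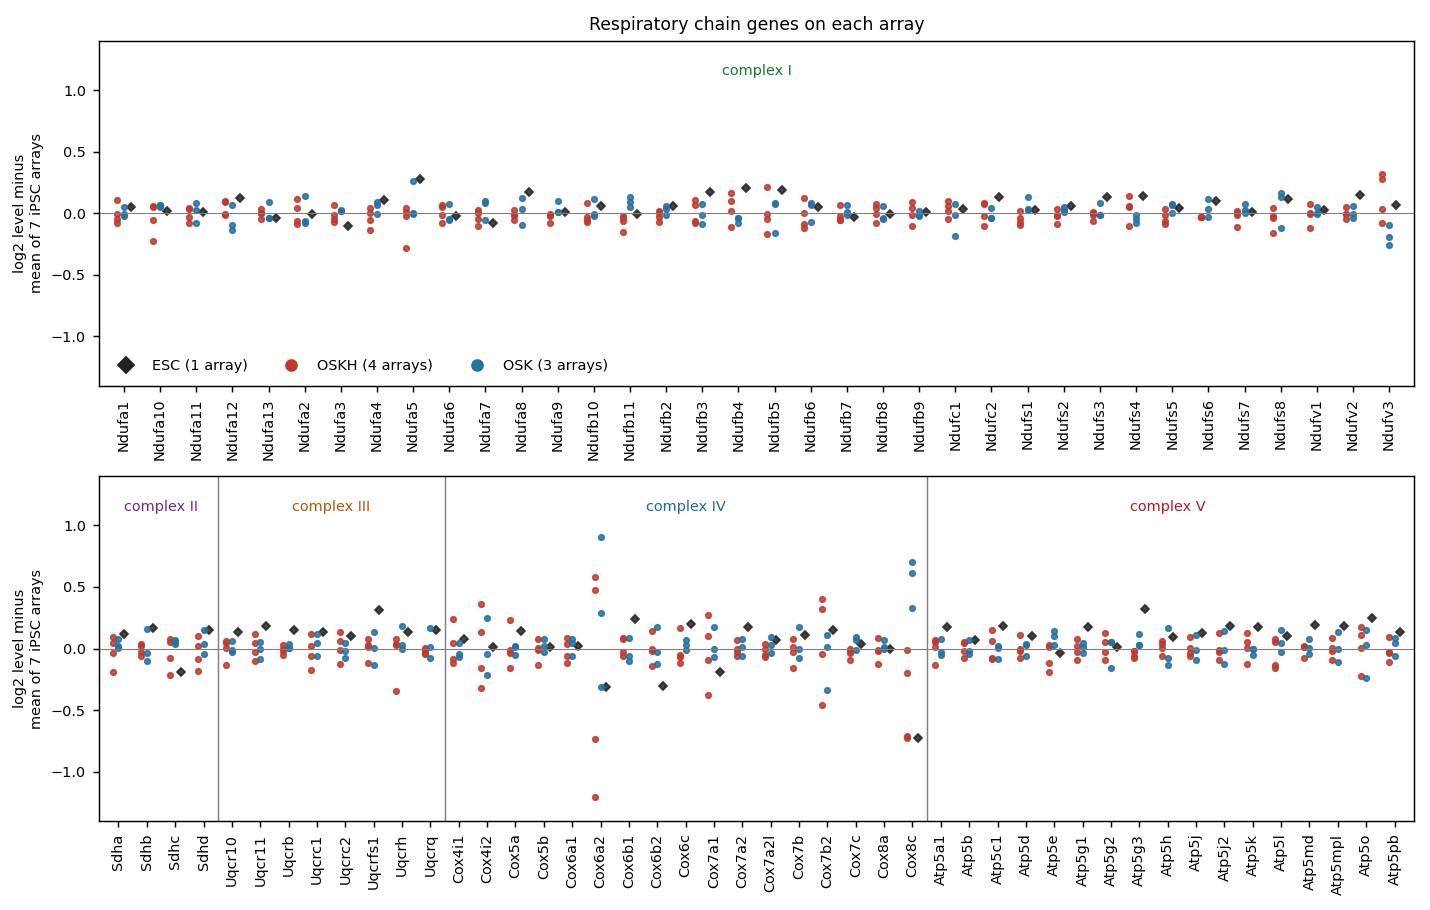
Log2 level of each of the 82 tested genes (x axis, by complex) on each array, as the difference from its own mean over the 7 iPSC arrays (y axis). Points are single arrays: OSKH red, OSK blue, ESC black diamonds. Most genes lie in a narrow band, and Cox6a2 and Cox8c of complex IV spread the most.

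The respiratory chain genes varied little among the iPSC arrays. The median standard deviation (SD) of a gene over the 7 iPSC arrays was 0.080, against 0.202 over all features and 0.105 over the 5227 features with a mean level above 3. The median range was 0.222, against 0.568 over all features and 0.295 over those brighter ones. Of the 82 genes, 76 had a mean level above 3. The median level of these 76 was 6.18, against 4.71 over the brighter features, so the comparison is not matched in level. The SD was similarly low for cytosolic ribosomal proteins (0.075, 83 genes) and mitochondrial ribosomal proteins (0.093, 77 genes), whereas that of 24 glycolytic enzymes was 0.281.

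OSKH and OSK iPSCs differed little in these genes. By limma with Benjamini-Hochberg adjustment over all features, 0 of 82 genes passed a threshold of 0.05, where the share of all features passing was 0.0%. At an unadjusted p under 0.05 there was 1 gene higher in OSKH, Ndufv3 (3.19% of all features), and 1 lower, Cox8c (3.29% of all features). The median difference over the 82 genes was -0.024, against -0.013 over all features. The fitted difference was above 0 for 25 genes and below for 57, where 46.3% of all features, and 43.7% of those with a mean level above 3, lay above 0. The count moved with single arrays and with scaling. Above 0 were 39 genes without OSK 3 (51.2% of all features) and 39 under median scaling (50.9%). There were 16 without OSK 2 (44.1%) and 14 with slide row as a block (43.4%), a fit in which OSK is compared with OSKH 4 alone, the OSKH array of its row.

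The interval of each difference gives its precision, judged by the scatter of these arrays. The 95% interval lay within 1.5-fold in either direction for 78 of the 82 genes and within 2-fold for 80. Over all features 60.9% and 83.7% lay within these bounds, and of the features above a mean level of 3, 89.8% and 97.6%. The 4 genes reaching past 1.5-fold were Ndufv3, Cox6a2, Cox7b2 and Cox8c, and past 2-fold Cox6a2 and Cox8c. That scatter may be technical, and the intervals take no account of slide row, so they do not bound how far the groups lie apart. They measure precision and are not adjusted for the number of genes.

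**Figure D2:**
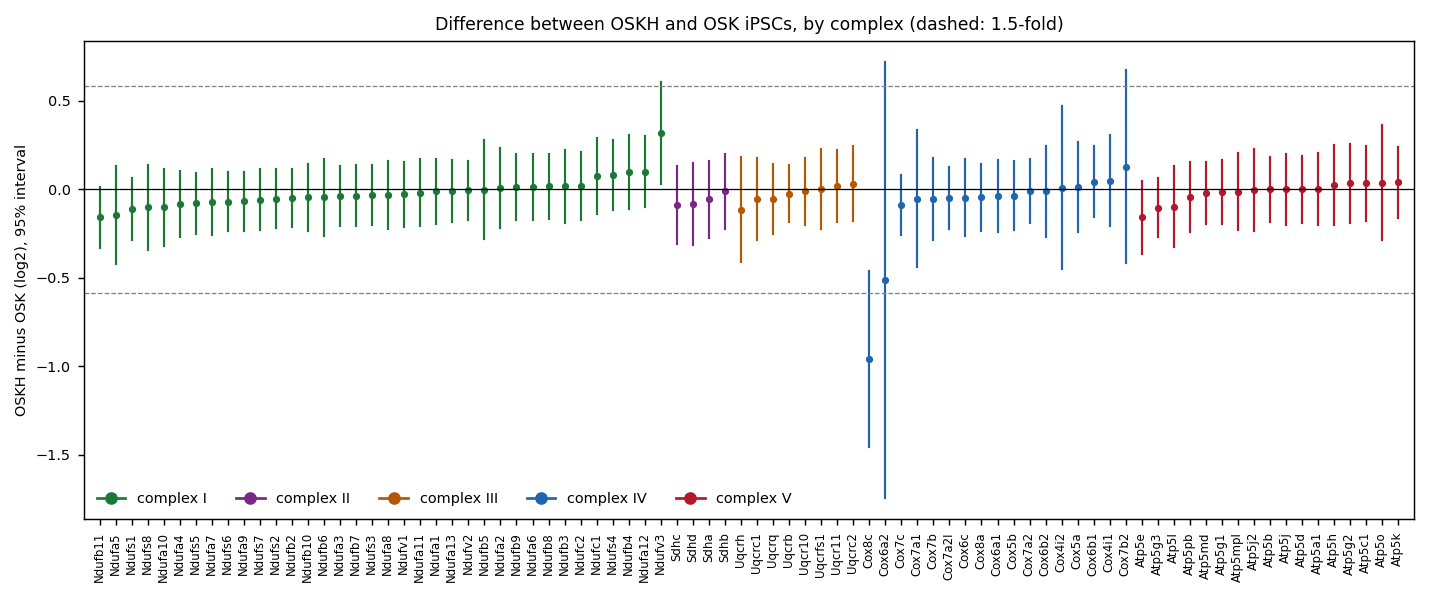
OSKH minus OSK difference of each tested gene (log2, y axis) with its 95% interval from limma, ordered by size within each complex (x axis, colours). Dashed lines mark 1.5-fold, which the intervals of 78 of 82 genes do not reach; Cox8c lies lowest at -0.96.

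In complex I, the NADH dehydrogenase, 11 genes had a fitted difference above 0 and 25 below, with a median of -0.033. Ndufv3 encodes a small accessory subunit of the flavoprotein module, where NADH is oxidised. Its levels were 6.57, 6.28, 6.53 and 6.17 on OSKH 1 to 4, and 6.16, 6.00 and 6.06 on OSK 1 to 3. It was the sole gene of the 82 with all 4 OSKH arrays above all 3 OSK arrays (3.15% of all features), with OSKH 4 and OSK 1 nearly level. The ESC array, at 6.32, lay among the OSKH arrays. The difference of 0.32 (SE 0.12) had an adjusted p of 0.752 in limma. With slide row as a block the difference was 0.10. The groups overlapped under normexp background correction and under median scaling. A second, dimmer Ndufv3 probe read 1.04, 0.19, 0.68 and 0.33 on OSKH 1 to 4 and 0.29, 0.21 and 0.00 on OSK 1 to 3, with the groups overlapping.

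Ndufb11, an accessory subunit of the membrane arm, had the smallest p among complex I genes lower in OSKH. Its levels were 5.86, 5.98, 5.99 and 5.95 on OSKH 1 to 4 and 6.06, 6.11 and 6.15 on OSK 1 to 3. All OSKH arrays lay below all OSK arrays, with ESC at 6.01 between them, and the difference was -0.16 (SE 0.07; adjusted p = 0.774 in limma). A second Ndufb11 probe, whose difference lay further from that of the first than in any other gene, had overlapping groups, with OSK 3 the lowest iPSC array at -1.72 and OSK 1 the highest at -1.52, and a difference of -0.034. Ndufa9 (-0.070), an accessory subunit, and Ndufs1 (-0.11), a core subunit carrying iron-sulfur clusters, also had OSKH below OSK on all arrays. They are named for this after their values were seen. In all, 6 of 82 genes showed this order (4.19% of all features), the others being Atp5e, Atp5g3 and Cox8c. Under median scaling 3 genes did and under quantile normalization 9. Under normexp 6 did, of which Ndufb11, Cox8c and Atp5e were the same, while Ndufa10, Ndufa4 and Cox6a2 took the place of the rest. Ndufv2, an iron-sulfur subunit of the flavoprotein module, was the steadiest gene of complex I, at 5.56 to 5.66 over the 7 iPSC arrays, and its difference was -0.008 (95% interval -0.18 to 0.16).

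In complex II, succinate dehydrogenase, all 4 genes had fitted differences below 0, with a median of -0.071. Sdhc and Sdhd anchor the enzyme in the membrane, and Sdha and Sdhb carry its flavin and iron-sulfur clusters. Sdhc read 3.59, 3.74, 3.72 and 3.45 on OSKH 1 to 4 and 3.74, 3.72 and 3.70 on OSK 1 to 3. The groups overlapped, and OSKH 4 was the lowest array. Its difference of -0.091 (SE 0.093) had an adjusted p of 0.921 in limma. Sdhd, the most variable of the 4, ranged from 5.75 to 6.08 over the iPSC arrays, and Sdhb, the steadiest, from 6.03 to 6.30.

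In complex III, the cytochrome bc1 complex, the median difference was -0.019, with 3 genes above 0 and 5 below. Uqcrh encodes the hinge protein, which helps cytochrome c1 meet cytochrome c. It read 6.67, 7.06, 7.09 and 7.04 on OSKH 1 to 4 and 7.04, 7.01 and 7.20 on OSK 1 to 3. The array OSKH 1 lay below all others while the remaining OSKH arrays overlapped with OSK, and the second Uqcrh probe was also lowest on OSKH 1, at 5.93 against 6.25 to 6.41 on the other iPSC arrays. The difference of -0.12 (SE 0.13; adjusted p = 0.924 in limma) was -0.017 without OSKH 1 and -0.038 with slide row as a block. Uqcrc2, a core protein, had the smallest p of the genes higher in OSKH, with a difference of 0.030 (SE 0.089; adjusted p = 0.974 in limma).

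Ndufa5, a complex I subunit of the matrix arm, had a similar low value on OSKH 1 and is named after its values were seen. Its brighter probe read 6.16 on OSKH 1 and 6.42 to 6.70 on the other iPSC arrays, and its dimmer probe 4.20 against 4.36 to 4.59. On OSK 3 both probes were highest among the iPSC arrays, and ESC was higher still at 6.72 and 4.68. Over the 82 genes, OSKH 1 was the lowest iPSC array in 13 (24.9% of all features). As shown above, the promoter of Ndufa5 held an NRF1 match and that of Uqcrh an ETS match. Any part of these matches in the values was not tested.

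**Figure D3:**
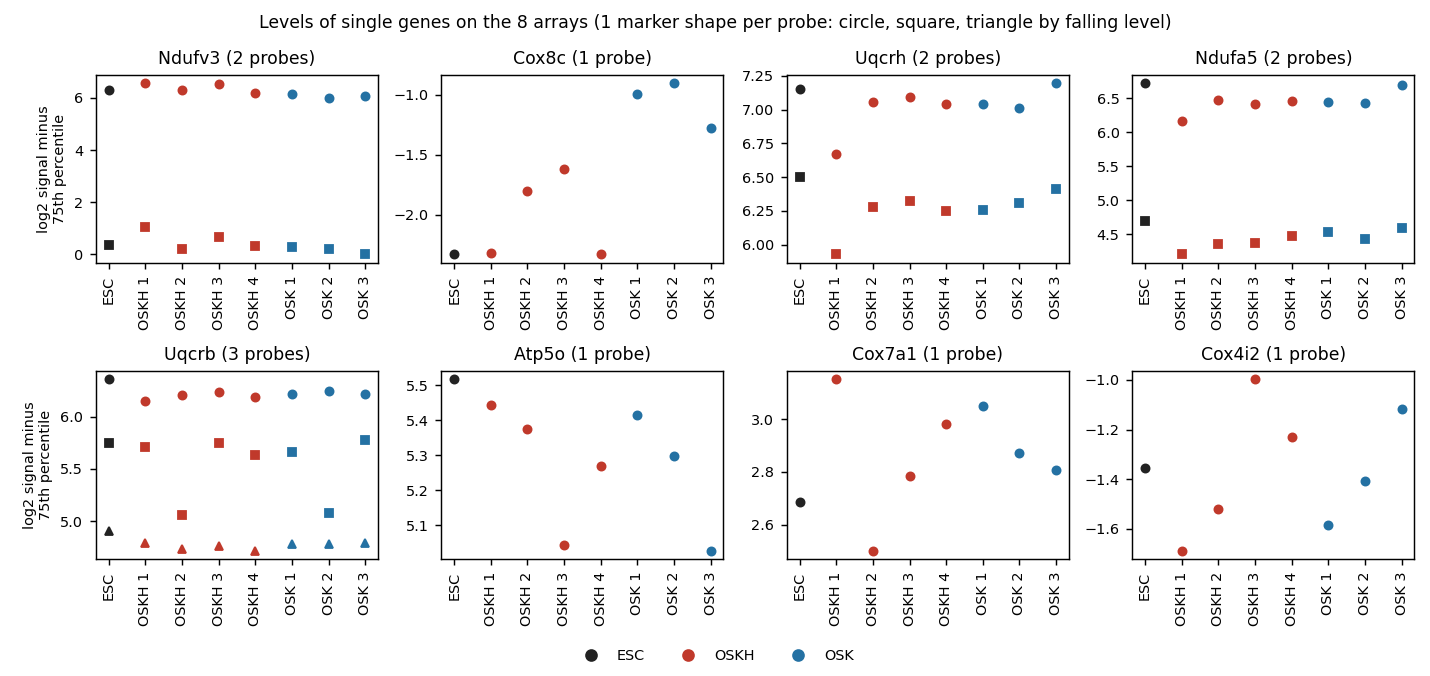
Levels of 8 genes on the 8 arrays (x axis), as log2 signal minus the 75th percentile of the array (y axis, scaled per panel and not starting at 0). Each marker is 1 array and each marker shape 1 probe. Cox8c is lower on the 4 OSKH arrays than on the 3 OSK arrays; both Uqcrh probes are lowest on OSKH 1; 1 of 3 Uqcrb probes is low on OSKH 2 and OSK 2.

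Complex IV, cytochrome c oxidase, held the genes with the largest SD over the iPSC arrays, the tissue-restricted isoforms Cox6a2 (0.769, in part below background), Cox8c (0.585), Cox7b2 (0.316) and Cox4i2 (0.255). The median difference over its 17 tested genes was -0.038, with 5 above 0 and 12 below. Cox8c, an isoform of the smallest subunit known from testis, read -2.32, -1.80, -1.62 and -2.33 on OSKH 1 to 4. On OSK 1 to 3 it read -0.99, -0.90 and -1.27, and on ESC -2.33. All 4 OSKH arrays lay below all 3 OSK arrays, and ESC was close to OSKH 1 and 4. The OSKH mean was -2.02 ± 0.36 (SD, n = 4) and the OSK mean -1.06 ± 0.19 (SD, n = 3), both well above background on every array. The difference of -0.96 (SE 0.21; 95% interval -1.46 to -0.46), or 0.514-fold, had an adjusted p of 0.732 in limma and did not pass. It was -0.59 under normexp background correction and -1.27 with slide row as a block.

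Other restricted isoforms did not share this order. Cox4i2, the isoform known from lung, read -1.69, -1.52, -0.998 and -1.23 on OSKH 1 to 4 and -1.58, -1.41 and -1.12 on OSK 1 to 3, and the groups overlapped. Cox7a1, known from heart and muscle, read 3.15, 2.50, 2.78 and 2.98 on OSKH 1 to 4 and 3.05, 2.87 and 2.81 on OSK 1 to 3, with OSKH arrays at both ends. Cox7b2, known from testis, ranged from -3.21 to -2.35 over the OSKH arrays and from -3.08 to -2.64 over the OSK arrays, and its difference was 0.13 (SE 0.23; adjusted p = 0.956 in limma).

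Cox6b2, a further testis isoform, ranged from 1.81 to 2.12 over the iPSC arrays and was 1.64 on ESC, below them all. Cox6a2, a heart and muscle isoform, was well above background on 4 of 8 arrays, 2 of OSKH and 2 of OSK. It read -3.41 to -4.63 over the OSK arrays and -3.74 to -5.52 over the OSKH arrays. The ESC array, not well above background at -4.63, lay level with OSK 1, so no fold is given. Cox8b, also a heart and muscle isoform, was well above background on 0 of 8 arrays and was not tested.

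The widely expressed partners are given next. Cox4i1 ranged from 7.52 to 7.88 over the iPSC arrays, Cox6a1 from 8.52 to 8.73 and Cox8a from 7.66 to 7.87, each with overlapping groups. Cox6b1 (3.85 to 4.04), Cox7a2 (6.04 to 6.18), Cox7a2l (6.66 to 6.83) and Cox7b (6.54 to 6.87) overlapped as well. The OSKH minus OSK differences of these 7 genes lay between -0.054 (Cox7b) and 0.046 (Cox4i1).

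In complex V, ATP synthase, the median difference was -0.002, with 6 genes above 0 and 11 below. Atp5e encodes the epsilon subunit of the central stalk. It read 7.00, 6.79, 6.99 and 6.86 on OSKH 1 to 4 and 7.08, 7.01 and 7.12 on OSK 1 to 3. The OSKH arrays lay below the OSK arrays, with OSKH 1 and OSK 2 nearly level, and the difference was -0.16 (SE 0.09; adjusted p = 0.830 in limma). Atp5k, encoding subunit e of the membrane part, had the smallest p of those higher in OSKH, at 0.038 (SE 0.085; adjusted p = 0.966 in limma). Atp5b, the catalytic beta subunit, was the steadiest, at 8.39 to 8.54 over the iPSC arrays and with a difference of -0.002 (95% interval -0.18 to 0.18).

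The c-ring of ATP synthase is built from 1 protein encoded by 3 genes. Atp5g3 read 7.67, 7.65, 7.71 and 7.71 on OSKH 1 to 4, 7.76, 7.76 and 7.85 on OSK 1 to 3 and 8.05 on ESC. Every OSKH array lay below every OSK array and ESC lay above both groups, with an OSKH minus OSK difference of -0.10 (SE 0.07; adjusted p = 0.857 in limma). Atp5g1 ranged from 7.26 to 7.43 over the iPSC arrays and Atp5g2 from 8.04 to 8.32, with differences of -0.015 and 0.033.

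The single ESC array lay above all 7 iPSC arrays in 34 of the 82 genes (41.5%) and below all of them in 2, Cox6b2 and Ndufa3. Over all features these shares were 18.5% and 8.09%, and of the features with a mean level above 3, 37.1% lay above. By complex, ESC was highest in 11 of 36 genes of I, 3 of 4 of II, 5 of 8 of III, 3 of 17 of IV and 12 of 17 of V. The order depended on the scaling between arrays: under quantile normalization ESC was highest in 5 genes and lowest in 22, where 12.7% of all features had ESC highest. Under normexp correction it was highest in 29 genes (19.2% of all features and 31.2% of the brighter ones). Under median scaling it was highest in 41 (20.3% and 41.1%).

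Both ESC comparisons rest on the same ESC array, so they are not independent of each other. The summed fibroblast marker signal was 23.4 on ESC and 25.5 on OSKH 4, against 5.57 to 13.6 on the others. Its part in these comparisons was not tested. For OSKH minus ESC the median over the 82 genes was -0.092, against -0.054 over all features, with 14 genes (17.1%) above 0 (40.1% of all features). Over the features with a mean level above 3, the median was -0.111 and 19.6% lay above 0. For OSK minus ESC it was -0.077, against -0.046, with 21 genes (25.6%) above 0 (42.7% of all features). The brighter features had a median of -0.0997, with 24.3% above 0. Under quantile normalization these medians were 0.014 and 0.029, and with slide row as a block the second was 0.010. In limma 0 of 82 genes passed in either comparison (0.0% of all features). At an unadjusted p under 0.05, OSKH minus ESC had 0 genes higher (1.69% of all features) and 1 lower, Atp5g3 (2.67%). OSK minus ESC had 1 higher, Cox8c (2.75%), and 1 lower, Atp5g3 (3.27%).

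The values of these genes side by side were as follows. Atp5g3 was -0.36 (SE 0.10) in OSKH and -0.26 (SE 0.10) in OSK relative to ESC, with adjusted p of 0.999 and 0.821 in limma. Cox8c was 0.31 (SE 0.31) in OSKH and 1.27 (SE 0.32) in OSK relative to ESC, with adjusted p of 0.999 and 0.679. The 95% interval lay within 1.5-fold for 70 of 82 genes in OSKH minus ESC and 71 in OSK minus ESC. Over all features 39.5% and 36.7% did so, and of those with a mean level above 3, 73.1% and 70.3%. These intervals were wider than between the iPSC groups because ESC is a single array.

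**Figure D4:**
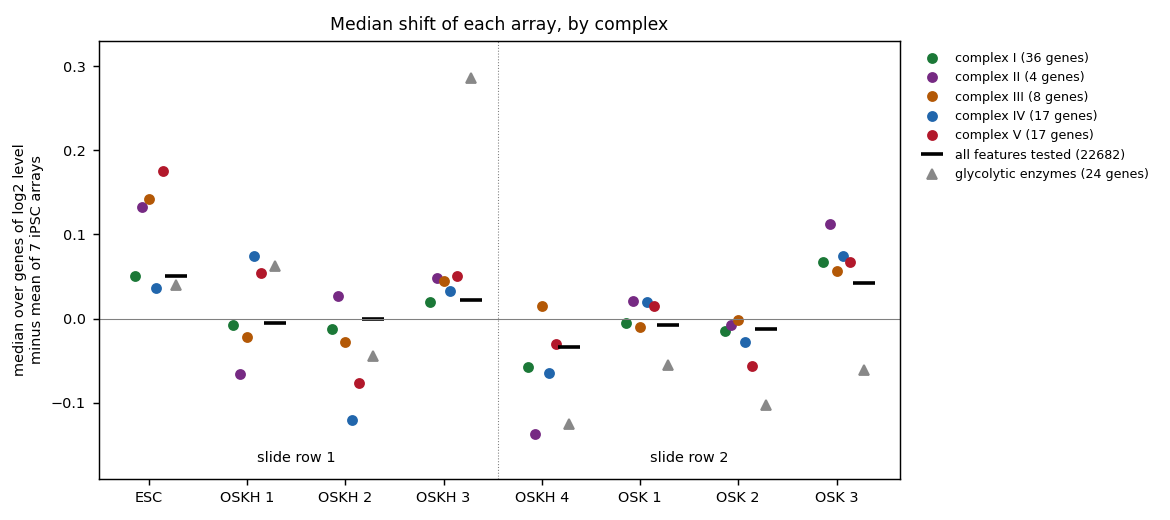
Median, over the genes of each complex, of the log2 level minus the mean of the 7 iPSC arrays (y axis) on each array (x axis). Coloured circles are complexes I to V, black bars all features and grey triangles glycolytic enzymes. On ESC, OSKH 3 and OSK 3 all 5 complexes lie above 0, as do all features. The glycolytic enzymes on OSKH 3 reach 0.286.

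Single iPSC arrays also stood at the edge for many genes. OSK 3 was the highest of the 7 iPSC arrays in 35 of 82 genes (17.04% of all features) and OSKH 4 the lowest in 29 (21.7% of all features). OSKH 2 was the lowest in 19 (11.4% of all features). The median deviation of the 82 genes from their iPSC mean was 0.069 on OSK 3 and -0.048 on OSKH 4, against 0.042 and -0.033 over all features and 0.052 and -0.049 over those with a mean level above 3. OSKH 4 is also the array with the raised summed signals of mesendoderm, trophectoderm and fibroblast markers given above, the last raised on ESC as well. Their part in these values was not tested. Without OSKH 4 the median OSKH minus OSK difference was -0.013.

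Arrays of the same number in both groups shared a slide column, and they also shared patterns. ESC and OSKH 4, the arrays with the highest summed fibroblast signals given above, shared a slide column as well. The part of the column in those signals was not tested. Both arrays numbered 3 lay outside all other iPSC arrays in 23 of the 82 genes (12.2% of all features), 21 of them above. Both arrays numbered 2 did so in 12 genes (9.93% of all features), all below, and both numbered 1 in 16 (23.5%). The clearest single case was 1 of 3 probes of Uqcrb, a small subunit of complex III, which read 5.06 on OSKH 2 and 5.08 on OSK 2 and 5.64 to 5.78 on the other iPSC arrays. The other Uqcrb probes did not show it, and the brightest ranged over 6.16 to 6.25. Atp5o, the peripheral stalk subunit known as OSCP, read 5.04 on OSKH 3 and 5.03 on OSK 3 and 5.27 to 5.44 on the other iPSC arrays. What a shared number stands for, and the shared slide column, cannot be told apart here.

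Genes that serve the respiratory chain were followed as lists, with 0 genes of any list called by limma in OSKH minus OSK (0.0% of all features). The lists other than glycolysis held 46, 19, 19, 16, 6, 77 and 83 tested genes. At an unadjusted p under 0.05, 2 of these genes lay above 0, Coq8b and Rpl13a (3.19% of all features). Below 0 were 3, 2 of them mitochondrial ribosomal proteins and 1 Rpl3l (3.29% of all features). Of 46 assembly factors, which build the complexes, 13 had differences above 0 and 33 below (median -0.043). Cox10, a heme synthesis enzyme for complex IV, had the smallest p of those below, at -0.33 (SE 0.15; adjusted p = 0.769), and Tmem70, an ATP synthase assembly factor, of those above, at 0.14 (SE 0.07; adjusted p = 0.821). Of 19 genes of mitochondrial transcription, replication and biogenesis, 8 were above and 11 below (median -0.012), with the coactivator Pprc1 at -0.25 and the polymerase subunit Polg2 at 0.11.

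Of 19 tricarboxylic acid cycle genes, 5 were above and 14 below (median -0.070). Their smallest p belonged to Suclg2, of succinyl-CoA ligase, at -0.16 below 0, and to Fh1, fumarase, at 0.066 above it. Cytochrome c and coenzyme Q genes were split 8 and 8 (median 0.005), with Coq8b at 0.24 and Coq6 at -0.10. Mitochondrial ribosomal proteins had 24 above and 53 below (median -0.050), with Mrps36 at 0.082 and Mrpl37 at -0.28. Cytosolic ribosomal proteins had 51 above and 32 below (median 0.008), with Rpl13a at 0.19 and Rpl3l at -0.82.

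Of 24 glycolytic enzymes, 19 had differences above 0 and 5 below, with a median of 0.18. At an unadjusted p under 0.05 there were 4 above and 1 below, where 3.19% and 3.29% of all features lay. Pfkfb3, which makes an activator of phosphofructokinase, differed by 0.49 (SE 0.16; adjusted p = 0.732 in limma), and Hk2, a hexokinase, by -0.34 (SE 0.09; adjusted p = 0.732 in limma). The median deviation of the glycolytic genes was 0.286 on OSKH 3, the highest of all arrays, and 0.062, -0.044 and -0.125 on OSKH 1, 2 and 4, the last being the lowest. Without OSKH 3 the median difference was 0.059, with 16 genes above 0 and 8 below.

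Ndufa4l2, a hypoxia-induced relative of Ndufa4 that the choice of genes left out, had its highest value on the same array. It read -2.24, -2.08, 1.42 and -1.93 on OSKH 1 to 4, -2.64, -2.43 and -2.40 on OSK 1 to 3, and -3.06 on ESC. All OSKH arrays lay above all OSK arrays, and OSKH 3 far above the rest. Its OSKH minus OSK difference was 1.28 (SE 0.89; adjusted p = 0.867 in limma). The 6 hypoxia-linked genes of this list were split 3 and 3, with a median of -0.010 and Isca1 lowest in p at -0.13. Of 26 symbols of mitochondrially encoded subunits and RNAs, 0 were named on the array, so that part of the chain was not analysed here.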

How the data were processed

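The 8 one-colour arrays were grouped from their sample titles. Per the submitters' processing notes and the file headers, the images were read with Agilent Feature Extraction 11.5.1.1. The deposited intensity of a spot has had background subtracted within its array, and arrays were not scaled to each other. The deposited flags are 0 or 1. The deposited value table, on a log2 scale, differed from the log2 intensities by a constant in each array (tolerance 0.01), with column medians from -3.71 to -3.60; its scale, lack of centring per gene and direction were thereby settled. The probe annotation refers to build mm9, per the file headers, so no gene coordinates are given; promoters carry those of GRCm38.p6.

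Control and outlier spots were left out and spots of a probe averaged, leaving 55667 probes. RefSeq transcripts named 27650 of them by the GRCm38.p6 table. The value was the log2 signal minus the 75th percentile of the array. A probe had to be well above background on 3 of 8 arrays, and the probe of highest mean stood for its gene. Of the 82 genes, 22 had several probes, whose OSKH minus OSK differences lay at most 0.126 apart. Genes with many pseudogenes (9 symbols for ATP synthase) may share signal with near-identical copies.

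The 3 groups were fitted together in limma 3.58.1 under R 4.3.3 (lmFit, eBayes), with 5 residual and 1.85 prior degrees of freedom and Benjamini-Hochberg adjustment over 22682 features at 0.05. ESC, a single array, adds nothing to the spread and is assumed to vary like the iPSC arrays. The number of arrays limits precision.

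Named were the genes with the smallest p in each direction and the largest and smallest range in each complex, isoform families, and in each list the smallest p per direction; exceptions are marked. The members and lists were chosen with earlier results of these data known. The pairing of array numbers was checked by correlating deviations from group means. The correlations were 0.49, 0.21 and 0.37 for numbers 1, 2 and 3, all over 0.1, so a fit with number as a block was made. Among pairs of unlike number, only OSKH 4 with OSK 3 was over 0.1, at 0.16. Alternatives were normexp (offset 50, on median spot signals), median and quantile scaling, other filters, probe means, the deposited table, each array left out, and slide row as a block.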

Additional observations from a re-analysis of the deposited data

Results flagged for a closer look

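Among the named genes, the level of Uqcrh on OSKH 1 (6.67) was far from the other 3 OSKH arrays, its gap to the nearest of them being 0.882 of the group's whole range. Groups of 4 were tested over 30 named genes, and chance flags about 1 in 20 such groups. This was the 1 item flagged. Uqcrh was named in part for the largest range over the iPSC arrays in complex III, so this rate does not hold for it.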

How the results depend on the processing

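The number of respiratory chain genes called by limma was 0 in every alternative run for all 3 comparisons. The median OSKH minus OSK difference stayed below 0 in 16 of 16 alternatives, from -0.065 (slide row as a block) to -0.0058 (without OSK 3). In the main fit it was -0.024, against -0.013 over all features. The alternatives are not all separate checks. The deposited table differs from the main values only by a constant in each array, which the scaling removes. The block on array number gives the same differences as leaving out OSKH 4. Under quantile normalization the median OSKH minus ESC difference turned to 0.014 and the OSK minus ESC median to 0.029. With slide row as a block the OSK minus ESC median turned to 0.010. In that fit ESC and OSK lie in different rows, which only the OSKH arrays join, with OSKH 4 alone in the row of OSK. The cause of these changes was not tested. The replicate block on array number, which leaves out OSKH 4, gave a median OSKH minus OSK difference of -0.013 and changed no call. Without OSKH 3 the glycolytic median was 0.059, a check chosen after seeing the data. Alternatives for the following counts were chosen after seeing the data. ESC was highest in 29 genes under normexp, 41 under median scaling and 5 under quantile normalization, and in 34 to 41 with 1 iPSC array left out. It was lowest in 1 and 22 genes under median scaling and quantile normalization. OSKH lay above OSK on all arrays in 0 genes under normexp, 0 under median scaling and 2 under quantile normalization, and below in 3 under median scaling. Of 1331 values of named genes under the alternatives, which include the repeats given above, 1331 stayed short of the threshold, and 92 changed sign. The limits are the number of arrays, 1 ESC array and probes such as Cox6a2 near background.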
